A study of Homo sapiens with 12 samples.

Results

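ALKBH5 is an RNA demethylase that removes N6-methyladenosine (m6A) from mRNA. FOXM1, AXL, TACC3, UBE2C, PER1, SLC16A3 and MYC are 7 genes described as ALKBH5 targets in cancers. They were selected by gene name and by no threshold on the values measured here, but with earlier results of these data known. They are 7 of the 29696 genes in the expression table, and all 7 passed the filter on low values. Expression and m6A enrichment of these genes were compared in A375, a human melanoma cell line, carrying a lentiviral short hairpin RNA against ALKBH5 (shALKBH5, genotype labelled ALKBH5 knockdown) or a control hairpin (shCtrl, genotype labelled wild type). Each group had 3 input libraries of fragmented poly(A) RNA (RNA-Seq) and 3 libraries of the same kind of RNA precipitated with an m6A antibody (MeRIP-Seq). Which of the hairpins against ALKBH5 was sequenced is not named in the labels. Nothing in the labels states that the 3 libraries of a group came from separate cultures. The paper's general statement that experiments were independently repeated 3 times does not name these libraries. The p-values therefore measure only the spread between these libraries, which may be technical.

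Methylation of mRNA at m6A is written by a METTL3-containing complex, removed by ALKBH5 or FTO, and read by proteins that change the stability, splicing or translation of the marked transcript. It is typically dense near stop codons and in 3'UTRs. FOXM1 has been described as an ALKBH5 target in glioblastoma stem-like cells, AXL and TACC3 in acute myeloid leukaemia, UBE2C in lung cancer, PER1 in pancreatic cancer and SLC16A3 in melanoma, while MYC mRNA is a known carrier of m6A. By role they fall into cell division factors (FOXM1, TACC3, UBE2C), a receptor (AXL), a clock repressor (PER1), a lactate transporter (SLC16A3) and a growth-promoting transcription factor (MYC).

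The targeted gene was checked first. ALKBH5 had 3.39, 3.92 and 3.12 FPKM in the shALKBH5 libraries and 19.3, 17.8 and 17.6 in the shCtrl libraries, where FPKM is fragments scaled to transcript length and to the library's mapped fragments. The mean was 19.1% of shCtrl (log2 fold change -2.36, SE 0.0887, adjusted p = 1.276e-06). Adjusted p-values here and below come from limma on log2(FPKM + 0.1) with Benjamini-Hochberg correction over 12985 genes, and fold changes are on that scale. FPKM summed to between 212760 and 223231 per library, and because FPKM values do not give read totals, the depth behind each value is unknown. Among all tested genes, 61.0% passed an adjusted p of 0.05, 34.7% as higher and 26.2% as lower in shALKBH5, and the table had a median log2 fold change of 0.09. Of 12 melanoma markers, 7 had a mean of at least 1 FPKM, among them MITF, SOX10 and S100B, while PMEL, TYR, TYRP1 and DCT were below it. The summed melanoma markers ran from 499 to 509 FPKM in shALKBH5 and from 445 to 470 in shCtrl, but single markers moved apart. S100B ran from 79 to 85.1 FPKM in shALKBH5 against 31.5 to 34.2 in shCtrl, and CSPG4 from 70 to 76.1 against 81 to 89.4, while SOX10 overlapped (180 to 181 against 179 to 192). For keratinocyte markers the sums were 10.7 to 11.5 and 8.9 to 9.53, for fibroblast markers 3.2 to 4.35 and 2.23 to 2.37, for endothelial markers 3.75 to 4.24 and 2.33 to 2.64, and for immune markers 4.8 to 5.34 and 0.829 to 1.19, each list resting on 1 gene with a mean of at least 1 FPKM (KRT10, LUM, KDR and LYZ). Some keratinocyte, fibroblast and endothelial markers with a mean under 1 FPKM were lower in shALKBH5. They include KRT14 (0.242 to 0.526 against 0.83 to 1.07 in shCtrl), PDGFRA (0.21 to 0.27 against 0.376 to 0.465) and VWF (0.219 to 0.224 against 0.268 to 0.321). The part of any of these markers in the results was not tested.

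Of the 7 genes, 6 passed the threshold, against 61.0% of all tested genes. The 4 that fell were FOXM1, TACC3, UBE2C and AXL, and the 2 that rose were PER1 and SLC16A3, while MYC did not pass. A called decrease of at least 1 on the log2 scale was seen for 3 of the 7, against 6.29% of all tested genes, and a called increase of that size for 0, against 5.41%. The groups did not overlap for 6 of the 7, against 67.0% of all tested genes. Of the 7, 4 lay wholly lower in shALKBH5, against 29.0% of all tested genes, and 2 wholly higher, against 38.0%. In bulk RNA of this kind, fewer cells in a given state and less RNA per cell cannot be told apart.

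**Figure D1:**
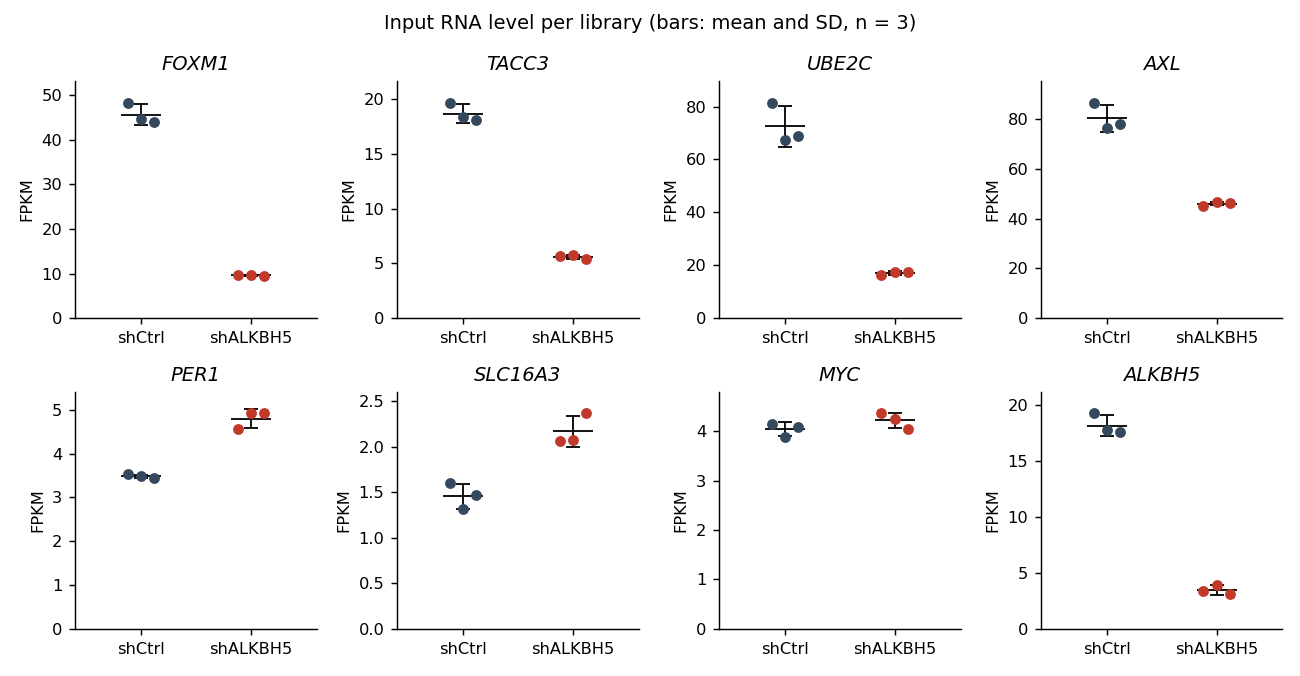
Expression of the 7 genes and of ALKBH5 in each input library, in FPKM on a linear axis starting at 0, with 1 point per library and black bars for the group mean and SD (n = 3). FOXM1, TACC3, UBE2C and AXL are lower in all 3 shALKBH5 libraries, PER1 and SLC16A3 are higher, and the MYC points overlap.

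FOXM1 is a forkhead transcription factor that drives genes of late cell cycle. FOXM1 (ENSG00000111206, chromosome 12, 2857680 to 2877174, minus strand) had 9.69, 9.71 and 9.47 FPKM in shALKBH5 and 48.3, 44.7 and 44.0 in shCtrl. All shALKBH5 libraries lay far below all shCtrl libraries. The means were 9.62 ± 0.134 and 45.6 ± 2.31 (SD, n = 3), which is 4.74-fold lower (log2 fold change -2.23, SE 0.0481, 95% interval -2.35 to -2.12, adjusted p = 2.258e-07). Of the genes past the threshold, 70 fell by more. FOXM1 overlaps RHNO1 on the opposite strand by 917 bp, and RHNO1 also had less RNA in shALKBH5 (4.07 against 11.6 FPKM). It also overlaps ITFG2 on the opposite strand, by 2112 bp, and ITFG2 had 2.12 FPKM in shALKBH5 and 1.83 in shCtrl. For the precipitated RNA, the paper's methods describe U-labelled second strands made with dUTP. The strand setting used in counting is not given in the sources used here, so reads in the shared stretches cannot be told apart. The antisense transcript FOXM1-AS1, reported to work with ALKBH5 on FOXM1, was not analysed here.

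TACC3 stabilises spindle microtubules in mitosis together with clathrin and the microtubule polymerase CKAP5. TACC3 (ENSG00000013810, chromosome 4, 1712891 to 1745171, plus strand) had 5.65, 5.77 and 5.43 FPKM in shALKBH5 and 19.7, 18.4 and 18.1 in shCtrl. The groups were again fully apart, with 3.33-fold lower expression in shALKBH5 (log2 fold change -1.72, SE 0.0533, 95% interval -1.84 to -1.59, adjusted p = 6.366e-07). TACC3 shares 5407 bp with TMEM129 on the opposite strand, which had 9.74 FPKM in shALKBH5 and 8.53 in shCtrl.

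UBE2C is the ubiquitin-conjugating enzyme that starts chains for the anaphase-promoting complex. UBE2C (ENSG00000175063, chromosome 20, 45812576 to 45816957, plus strand) had 16.4, 17.4 and 17.4 FPKM in shALKBH5 and 81.5, 67.2 and 68.9 in shCtrl. Every shALKBH5 value was below every shCtrl value, and the shCtrl libraries spread more widely than for FOXM1. Expression was 4.25-fold lower in shALKBH5 (log2 fold change -2.08, SE 0.0763, 95% interval -2.26 to -1.9, adjusted p = 1.150e-06).

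AXL is a receptor tyrosine kinase of the TAM family with GAS6 as its ligand. AXL (ENSG00000167601, chromosome 19, 41219223 to 41261766, plus strand) had 45.3, 46.7 and 46.3 FPKM in shALKBH5 and 86.7, 76.4 and 78.2 in shCtrl. The groups did not overlap, but the decrease was smaller than for the cell division factors. The level was 57.3% of shCtrl (log2 fold change -0.8, SE 0.0525, 95% interval -0.92 to -0.68, adjusted p = 1.436e-05), and 1180 genes past the threshold fell by more.

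PER1 encodes a repressor in the circadian feedback loop. PER1 (ENSG00000179094, chromosome 17, 8140472 to 8156506, minus strand) had 4.56, 4.92 and 4.92 FPKM in shALKBH5 and 3.53, 3.48 and 3.45 in shCtrl. All shALKBH5 values were above all shCtrl values. The increase was 1.38-fold (log2 fold change 0.45, SE 0.0608, 95% interval 0.31 to 0.59, adjusted p = 5.058e-04), and 2707 genes past the threshold rose by more.

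SLC16A3 encodes the lactate exporter MCT4 and was the least expressed of the 7. SLC16A3 (ENSG00000141526, chromosome 17, 82228397 to 82261129, plus strand) had 2.06, 2.08 and 2.37 FPKM in shALKBH5 and 1.6, 1.32 and 1.47 in shCtrl. The libraries of the groups were apart, although by less than 1 FPKM. Expression was 1.48-fold higher in shALKBH5 (log2 fold change 0.54, SE 0.104, 95% interval 0.29 to 0.78, adjusted p = 0.00314), and 0.36 with a pseudocount of 1. CSNK1D overlaps SLC16A3 over 22107 bp on the opposite strand at a higher level, with 13.7 FPKM in shALKBH5 and 11.8 in shCtrl, and with the strand setting not given the reads of the shared stretch cannot be told apart.

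MYC is a transcription factor that pairs with MAX. MYC (ENSG00000136997, chromosome 8, plus strand) had 4.36, 4.25 and 4.05 FPKM in shALKBH5 and 4.15, 3.88 and 4.09 in shCtrl. The groups overlapped, and the log2 fold change of 0.06 (SE 0.0621) had a 95% interval of -0.08 to 0.21 (adjusted p = 0.423). When libraries were rescaled by the median ratio, the MYC value was -0.01. An exact two-sided permutation test over the libraries gave p = 0.3 for MYC and p = 0.1 for each of the other members and for ALKBH5. The value of 0.1 is the smallest that 3 libraries against 3 can give.

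**Figure D2:**
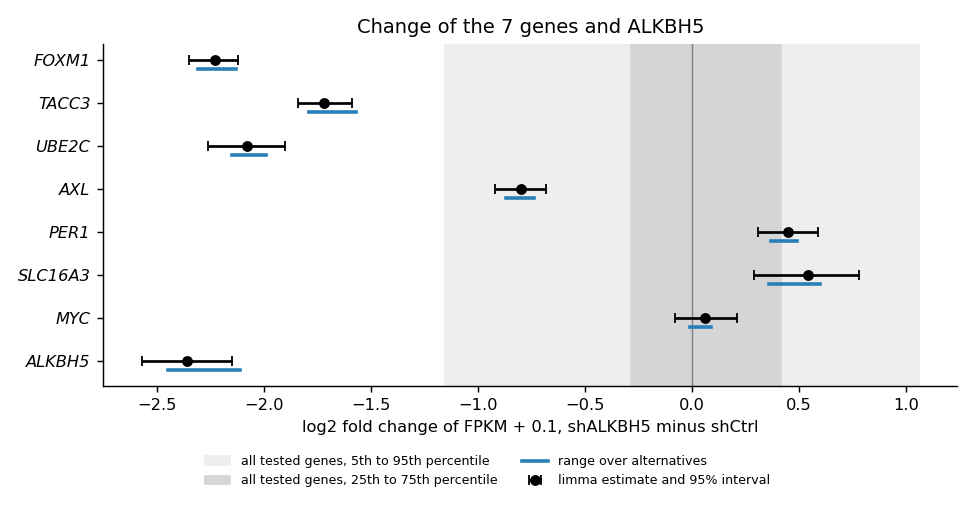
Log2 fold change of each gene, shALKBH5 minus shCtrl on the log2(FPKM + 0.1) scale, and of ALKBH5, with its 95% interval, a blue line for the range over the alternatives and grey bands for the middle 50% and 90% of all tested genes. FOXM1, TACC3 and UBE2C lie left of both bands, AXL at -0.8 within the wider one, and MYC at 0.06 has an interval that spans 0.

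By level, AXL led in shCtrl with a mean of 80.4 FPKM, followed by UBE2C at 72.5, FOXM1 at 45.6 and TACC3 at 18.7, with MYC at 4.04, PER1 at 3.48 and SLC16A3 at 1.46. AXL and UBE2C are neighbours whose libraries overlapped in shCtrl (76.4 to 86.7 and 67.2 to 81.5 FPKM). In shALKBH5, AXL at 46.1 FPKM stood apart from UBE2C at 17.1 and FOXM1 at 9.62. Below them were TACC3 at 5.61, PER1 at 4.8, MYC at 4.22 and SLC16A3 at 2.17, so PER1 and MYC changed places between the groups. In shCtrl, replicate 1 held the highest value for all 7 genes, and the 4 decreases and 2 increases held without it.

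The genes that work with each of the 7 were then examined in lists of known partners, where counts are read against the 34.7% of tested genes that were higher and 26.2% that were lower. The lists, like the 7 genes, were chosen with earlier results of these data known, so these shares are a description only. Each list and its counts and median include the reported target itself. Without it the medians were -1.83 for the FOXM1 list, -0.32 for TACC3, -0.21 for UBE2C, -0.2 for AXL, 0.23 for PER1, -0.13 for SLC16A3 and 0.16 for MYC. The FOXM1 list held FOXM1, its cofactors in the MuvB complex and genes known to be driven in late cell cycle. Of its 21 genes 19 were tested, of which 18 fell and 0 rose (median log2 fold change -1.83, against 0.09 for all tested genes). LIN37, a MuvB subunit, was the exception at -0.1 (adjusted p = 0.478). CDC25C, the phosphatase that activates the mitotic kinase, fell by 2.46 on the log2 scale (SE 0.183, adjusted p = 2.634e-05), from 3.31 ± 0.226 to 0.533 ± 0.168 FPKM. The mitotic kinesin KIF20A fell by 2.32 (38.5 ± 1.58 to 7.62 ± 0.441 FPKM, adjusted p = 3.146e-07), and the phosphatase CDKN3 fell by 2.33 and the kinetochore protein CENPF fell by 2.16 (adjusted p = 7.264e-05 and 2.710e-04). These sizes depend on the pseudocount for the low genes, and with a pseudocount of 1 they were -1.5 for CDC25C, -1.47 for CDKN3 and -1.09 for CENPF. The other MuvB and MYB subunits moved less evenly, with MYBL2 at -1.92, LIN52 at -0.64 and RBBP4 at -0.3, while LIN9 and LIN54 were too low to test.

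TACC3 and its spindle partners numbered 9, and 5 of them fell and 1 rose (median -0.37). GTSE1, a microtubule-binding protein of the clathrin-coated spindle, fell by 2.45 (8.11 ± 0.263 to 1.41 ± 0.134 FPKM, adjusted p = 8.445e-07). AURKA, the kinase that phosphorylates TACC3, and its activator TPX2 both fell, with log2 fold changes of -1.69 and -1.79 (adjusted p = 1.692e-06 and 3.508e-06). Clathrin heavy chain, CLTC, rose by 0.59 (adjusted p = 0.00304), and CKAP5 had a value of 0.32 that did not pass (adjusted p = 0.112).

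For the anaphase-promoting complex, 11 of 20 tested genes fell and 4 rose (median -0.31). UBE2S, which extends the chains UBE2C starts, fell by 1.93 (98.7 ± 7.8 to 25.8 ± 0.833 FPKM, adjusted p = 6.699e-07). The activator CDC20 fell by 1.83 (131 ± 14.9 to 36.7 ± 1.12 FPKM, adjusted p = 2.094e-06), and the enzyme UBE2D1 and the activator FZR1 fell, with log2 fold changes of -0.77 and -0.41 (adjusted p = 0.00214 and 9.305e-04). With a pseudocount of 1 the UBE2D1 value was -0.42. Core subunits went both ways. CDC23 and ANAPC7 fell, at -0.89 and -0.77 (adjusted p = 9.575e-06 and 4.109e-05), and CDC26 and ANAPC1 rose, at 0.49 and 0.42 (adjusted p = 2.153e-04 and 0.00638). CDC16, CDC27, ANAPC2, ANAPC4 and ANAPC10 did not pass.

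In the AXL family, GAS6 fell by 1.09 and the sister receptor TYRO3 fell by 0.56, while the third receptor, MERTK, rose by 0.87 (adjusted p = 1.209e-04, 1.019e-04 and 0.00168). GAS6 had 1.82 ± 0.185 FPKM in shCtrl and 0.801 ± 0.015 in shALKBH5. MERTK was low in both groups, at 1.08 ± 0.16 in shALKBH5 and 0.545 ± 0.0355 in shCtrl. With a pseudocount of 1 the fold changes were -0.64 for GAS6 and 0.43 for MERTK. The other ligand, PROS1, stood at 0.16 and did not pass (adjusted p = 0.441).

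The clock list had 15 tested genes of 22, of which 8 rose and 3 fell (median 0.24). CRY2, a partner repressor of PER1, rose by 0.94 (2.16 ± 0.328 to 4.21 ± 0.176 FPKM, adjusted p = 2.604e-04), whereas the paralogous CRY1 fell by 0.66 (adjusted p = 6.882e-04). ARNTL, the activator that PER1 opposes, rose by 0.62 (adjusted p = 0.00567), and the nuclear receptor NR1D2 fell by 0.78 (adjusted p = 0.00375). With a pseudocount of 1 these were 0.38 for ARNTL and -0.49 for NR1D2. PER2 had a value of 0.3 that did not pass (adjusted p = 0.0977).

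For SLC16A3, 2 of 6 tested list genes rose, SLC16A3 itself and LDHB, and 2 fell. The median was 0.05, and its sign turned to -0.13 without SLC16A3. BSG, the chaperone that brings the transporter to the membrane, fell by 0.5 from 138 ± 7.79 to 97.6 ± 1.63 FPKM (adjusted p = 7.839e-05). LDHB rose by 0.24 (adjusted p = 0.00144). LDHA had a value of -0.15 (adjusted p = 0.0286) that missed the threshold without low-value filtering (0.0809), with the replicate number as a block (0.0519), without the trend (0.0792), and without any of shALKBH5 replicates 1 and 3 and shCtrl replicates 2 and 3 (0.0666 to 0.101). SLC16A1, the related MCT1, was at 20.4 ± 1.74 FPKM in shALKBH5 and 17.3 ± 2.06 in shCtrl (adjusted p = 0.0667).

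For the MYC network, 4 of 12 tested genes rose, 4 fell and 4 did not pass (median 0.15). MAX rose by 0.56 and MLX by 0.62 (adjusted p = 7.873e-05 and 1.077e-05). MXD3, which competes with MYC for MAX, fell by 2.31 from 1.95 ± 0.141 to 0.317 ± 0.0652 FPKM (adjusted p = 1.534e-05), and its log2 fold change was -1.17 with a pseudocount of 1. ZBTB17, a repressive partner of MYC, fell by 0.53 (adjusted p = 2.897e-04).

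**Figure D3:**
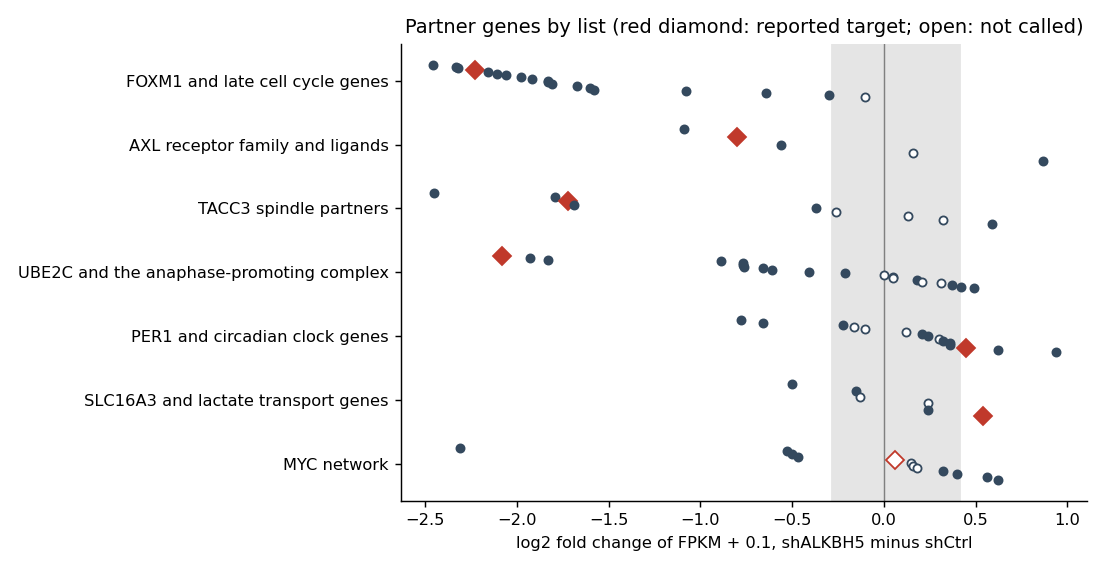
Log2 fold change, shALKBH5 minus shCtrl, of every tested gene in the 7 lists of known partners, with 1 point per gene, a diamond for the reported target open symbols for genes not past an adjusted p of 0.05, and a grey band for the middle 50% of all tested genes. All 19 tested genes of the FOXM1 list lie below 0 (median -1.83), and the MYC network scatters around 0.15.

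Promoter sequence was available for 4 of the 7 genes (TACC3, AXL, PER1 and SLC16A3) in RefSeq, build GRCh38.p14, each window running from 250 bases before to 50 after the start. The letters TTTGAA (the cell cycle homology region, CHR, to which MuvB binds), CCAAT (the box bound by NFY) and CACGTG (the E-box read by clock factors and by MYC with MAX) were searched on both strands. They are found in 15.2%, 34.6% and 7.26% of all 35116 promoters. TACC3, AXL and SLC16A3 windows held none of these letters, while PER1 held CCAAT 4 times and the E-box once. The following stretches of at most 30 bases show the PER1 E-box and the CHR letters of partners that fell (CDC25C, GTSE1 and CDC20), did not pass (CKAP5) or rose (ANAPC1), with the match in capitals and each read 5′ to 3′ on the strand of the gene. GTSE1 and CKAP5 carry the reverse complement, TTCAAA, and the ANAPC1 stretch stops at the end of its window. Their positions are chr17:8152560-8152589 (PER1, minus strand), chr5:138331817-138331846 (CDC25C, minus strand), chr22:46296832-46296861 (GTSE1, plus strand), chr1:43358904-43358933 (CDC20, plus strand), chr11:46846336-46846365 (CKAP5, minus strand) and chr2:111884144-111884168 (ANAPC1, minus strand).
PER1 E-box: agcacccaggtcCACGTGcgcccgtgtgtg
CDC25C CHR: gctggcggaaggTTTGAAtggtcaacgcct
GTSE1 CHR: ctcggagcccttTTCAAAccgaccaatcgg
CDC20 CHR: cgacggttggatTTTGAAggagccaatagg
CKAP5 CHR: gcccacaggcctTTCAAAtggaccaataaa
ANAPC1 CHR: tggacgcgtccaTTTGAAcgtctcg

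Counted per gene over all of its windows, the CHR letters are found in 18.2%, CCAAT in 39.7% and the E-box in 8.77% of 27305 genes. In the FOXM1 list, 11 of 19 genes with a promoter held the CHR letters and 16 held CCAAT. The CHR letters were in 3 of 6 genes of the TACC3 list and 6 of 19 of the UBE2C list, and the clock list had the E-box in 6 of 18. By call, they were in 8 of 16 falling genes of the FOXM1 list, 1 of 2 of the TACC3 list and 4 of 10 of the UBE2C list, and in 1 of 4 rising genes of the UBE2C list (ANAPC1). LIN37, TACC2, CKAP5 and ANAPC10, which did not pass, also held them, and MYBL2, KIF20A and UBE2S fell without them. These matches describe letters only and do not show that a factor is bound in A375.

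The m6A data were then read for the same genes. Each group had a single deposited peak list, with IP over input fold enrichment and the peak caller's p-values, so the values below have no replicate error and no test between the groups. The lists held 46039 peaks in shALKBH5 and 44304 in shCtrl, with median fold enrichments of 5.31 and 5.25. Peak positions match human gene coordinates, and the start and end of 3 of the 7 genes in the expression table equal those of RefSeq GRCh38.p14, although the labels name a mouse build, mm10.

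The 7 genes held 26 peaks in shALKBH5 and 25 in shCtrl. Of these, 11 in each list lay in 3'UTRs, 7 in each in 5'UTRs and 6 in each in introns. Over all peaks 45.5% in shALKBH5 and 46.2% in shCtrl lay in 3'UTRs, so the 3'UTR counts are near the background. Shares over all peaks were not computed for 5'UTRs and introns. A peak of the other list overlapped 18 of the 26 and 18 of the 25. Over all genes, 35544 of the 46039 shALKBH5 peaks overlapped a shCtrl peak of the same gene. Among 18 matched pairs, each peak being set beside the one of the other list that shares most bases with it, enrichment was higher in shALKBH5 in 8 and lower in 10, with ratios from 0.395 to 4.11 (median 0.978). Both ends of that range are TACC3 intron pairs whose overlap covered 25.8% and 30.3% of the longer peak. Each pair held a weak peak, with log10 false discovery rates of -0.832 and -0.946. Across all genes 43.4% of 35544 matched pairs were higher in shALKBH5 (median ratio 0.956), so the members lay near the background. In 3'UTRs 2 of 9 matched pairs were higher and 7 lower, where 43.9% of 16885 matched 3'UTR pairs over all genes were higher and 55.6% lower. The median fold enrichment of all 3'UTR peaks was 4.95 in shALKBH5 and 5.11 in shCtrl.

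**Figure D4:**
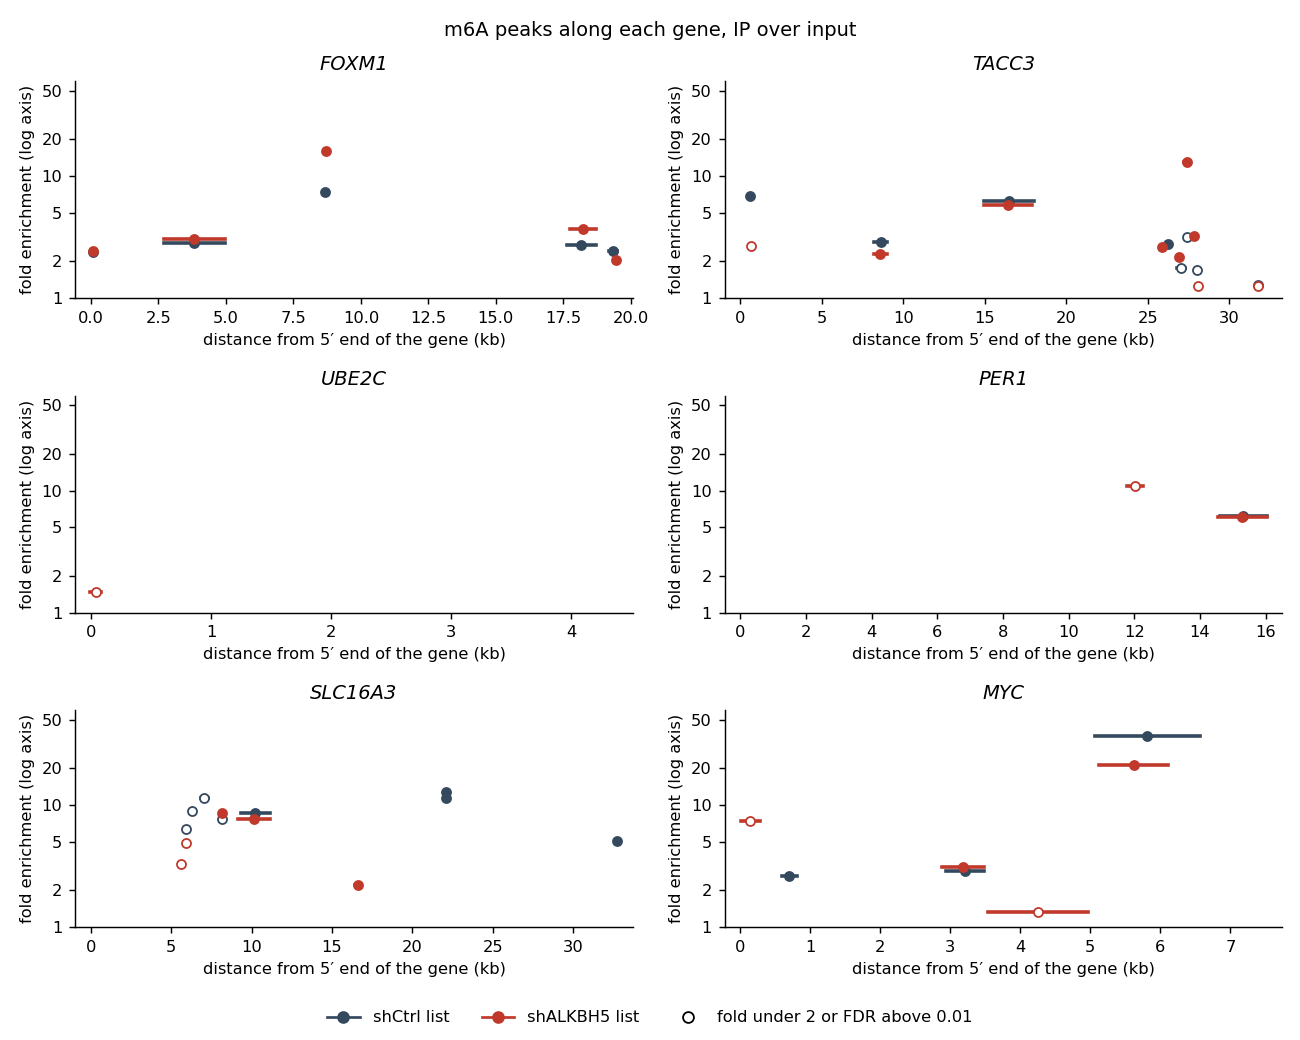
Peaks of FOXM1, TACC3, UBE2C, PER1, SLC16A3 and MYC in the shALKBH5 (red) and shCtrl (dark) lists, drawn by distance from the gene's 5′ end in kb against IP over input fold enrichment on a log axis, with lines for peak width and open points for a fold under 2 or a false discovery rate above 0.01. The wide 3'UTR peaks of FOXM1, PER1, SLC16A3 and MYC are in both lists, UBE2C has a single weak peak, and AXL, which has none, is not drawn.

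FOXM1 had 5 peaks in each list. Its broad 3'UTR peak (2858460 to 2859419 in shALKBH5) had a fold enrichment of 3.68 in shALKBH5 and 2.7 in shCtrl, and the broad peak annotated to the 5'UTR (2872211 to 2874480) had 3.02 and 2.8. A short intronic peak (2868451 to 2868510 in shALKBH5) had 15.9 against 7.43. FOXM1 enrichment was thus higher in shALKBH5 at each of these positions and at the 5′ end (2.45 against 2.36), while at the far 3′ end it was lower (2.05 against 2.44). Input RNA of FOXM1, the denominator of these ratios, was 4.74-fold lower in shALKBH5, and its part in them was not tested. Input RNA of TACC3 was 3.33-fold lower in shALKBH5, and the TACC3 ratios between matched peaks went both ways, from 0.395 to 4.11.

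TACC3 had 9 peaks in shALKBH5 and 8 in shCtrl. The widest, at 1727836 to 1730810 and annotated as 3'UTR of transcript ENST00000467746, had a fold enrichment of 5.77 in shALKBH5 and 6.25 in shCtrl. An intronic peak near the gene's 3′ end (1740129 to 1740428) had 13.1 in shALKBH5 and overlapped a pair of shCtrl peaks. The one sharing most bases (1740219 to 1740309), which sets the ratio of 4.11, had 3.19 and a false discovery rate, at a log10 of -0.946, that missed the strict limit, and the other (1739679 to 1740159) had 1.77. UBE2C, in contrast, had no peak in shCtrl and a single weak one in shALKBH5 (45812576 to 45812666, 5'UTR, fold enrichment 1.48, log10 p -1.83). The UBE2C peak ranked at the 2.92 percentile of its list.

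No AXL peak was in either list, although AXL was the most abundant of the 7. Of the 564 tested genes with a mean level at or above that of AXL, 101 (17.9%) likewise had no peak in either list, as did 11.1% of all tested genes.

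PER1 had a 3'UTR peak (8140472 to 8141953 in shALKBH5) with a fold enrichment of 6.03 in shALKBH5 and 6.21 in shCtrl. A second PER1 peak was listed only in shALKBH5 (8144241 to 8144720, fold enrichment 11, log10 p -2.35). It is annotated as 3'UTR of another transcript, ENST00000581395. Its log10 false discovery rate of -1.4 missed the strict limit. SLC16A3 had its main peak in the 3'UTR (82237562 to 82239538 in shALKBH5), at 7.72 in shALKBH5 and 8.57 in shCtrl. It had 5 peaks in shALKBH5 and 8 in shCtrl, and 2 of the 8 covered nearly the same intronic stretch. Its peaks from 82244800 onward, and the end of the main peak, lie within CSNK1D on the opposite strand (82239023 to 82273731). Each list also holds 5 CSNK1D peaks within the SLC16A3 span. With no strand setting given for peak calling either, which gene these signals come from cannot be told. MYC held the strongest enrichment of the 7 genes, in its 3'UTR, with 21.4 in shALKBH5 and 37 in shCtrl (percentiles 96 and 98.7 of their lists). These MYC peaks spanned 989 bp in shALKBH5 and 1498 bp in shCtrl. The expression difference of MYC lay within the spread of its libraries, and no link between enrichment and expression was tested.

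A deposited table of peaks compared between the groups lists positions for 3 of the 7 genes, at a 3'UTR stretch of FOXM1 (2858430 to 2859539), a 3'UTR stretch of TACC3 (1739679 to 1740428) and an intron of SLC16A3 (82244800 to 82245202). The TACC3 stretch takes in the peak at 1740129 to 1740428, which the shALKBH5 list annotates as intronic. The SLC16A3 stretch also lies within CSNK1D on the opposite strand. Across the table, 32.7% of tested genes have a peak in that table.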

How the data were processed

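The 7 genes and the partner and marker lists were chosen with earlier results of these data known. The authors deposited gene expression as FPKM per input library, with their own fold changes (linear and log2) and p- and q-values, which were not used. Per the file headers, the deposited peak lists (1 per group) hold a fold enrichment of IP over input, log10 p-values and log10 false discovery rates (treated as a score). The deposited table of compared peaks also holds the authors' log2 differences, p-values and false discovery rates, and only its positions were used. The study's methods name edgeR for quantifying expression and for the authors' own comparison, and the aligner and peak caller are not given in the sources used here. The submitters' processing notes name the build mm10.

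Since the expression table holds FPKM and not counts, log2(FPKM + 0.1) was fitted for the 12985 of 29696 genes averaging 0.5 FPKM or more over the input libraries, with limma 3.58.1 in R 4.3.3 (lmFit, eBayes with trend), two-sided, with Benjamini-Hochberg adjustment and a threshold of 0.05. Low values did not give a common step per read, so depth is unknown. The fit was tested on simulated data. Peaks were matched by an overlap of at least 1 bp on the same strand. Exact permutation tests used scipy 1.17.1. Named partners were up to 4 per list with the largest absolute change among those past the threshold with at least 1 FPKM in the higher group; other partners and the CHR stretches were picked after their values were seen, as were the overlapping genes. For each of the 7 genes the 2 genes most like it across the libraries were also taken, by the root mean square difference of centred log2 values. Same-numbered libraries were not paired by the labels. Alternatives covered the pseudocount (0.01 and 1), the filter, rescaling by median ratio, the replicate block, the trend, each library left out, and a strict peak limit (fold enrichment of at least 2, false discovery rate of at most 0.01).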

Additional observations from a re-analysis of the deposited data

How the results depend on the processing

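FOXM1, TACC3, UBE2C, AXL, PER1 and SLC16A3 kept their direction and stayed past the threshold under every expression alternative run. Their log2 fold changes ranged from -2.31 to -2.13 for FOXM1, -1.79 to -1.57 for TACC3, -2.15 to -1.99 for UBE2C, -0.87 to -0.74 for AXL, 0.37 to 0.49 for PER1 and 0.36 to 0.6 for SLC16A3. MYC was past the threshold in none, and its sign turned to -0.01 with median ratio rescaling (adjusted p = 0.89), the cause not being tested. That rescaling lowered the share of higher genes among those called from 57% to 49.2%. Same-numbered libraries did not deviate together (correlations of 0.018, -0.046 and 0.059). With the replicate number as a block, 7271 genes were called against 7917, the number of falling SLC16A3 list genes went from 2 to 1, through LDHA, and no member changed its call. Without the trend that number was also 1, and with libraries left out it ranged from 1 to 2. The AXL list had 0 rising genes under a filter of 1 FPKM, which removes MERTK. The rising TACC3 partners ranged from 1 to 2 with libraries left out. Strict peak limits left 17 of the 26 shALKBH5 and 17 of the 25 shCtrl peaks, near the 66.6% and 68.4% of all peaks, and 11 overlapping peaks in each list. An alternative on the exonic blocks of peaks was not run. With 3 libraries per group, unknown depth and 1 peak list per group, small changes of low genes and differences in m6A enrichment have limited or no error estimate.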

Other observations

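The genes most like each of the 7 across the 6 input libraries, by the root mean square difference of centred log2 values, are given as a description. For FOXM1 these were LOXL2, a collagen cross-linking enzyme (difference 0.022, log2 fold change -2.22), and HYOU1, an endoplasmic reticulum chaperone (0.038, -2.18). For UBE2C they were TINAGL1 (0.053, -2) and the glucose transporter SLC2A1 (0.053, -2.09), and for TACC3 the transcription factor ELK1 (0.036, -1.7) and the histone methyltransferase SUV39H1 (0.04, -1.66). AXL was followed most closely by SUSD2 (0.016, -0.79) and the choline transporter-like SLC44A2 (0.019, -0.82). For PER1 the nearest genes were TNFAIP1 (0.014, 0.46) and GBF1 (0.019, 0.44), for SLC16A3 SYNGR2 (0.023, 0.51) and FRAT2 (0.034, 0.56), and for MYC APOO (0.013, 0.07) and MFSD10 (0.018, 0.04).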
